A study of Mus musculus with 40 samples.

Results

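Livers of mice lacking Nampt in hepatocytes were compared between day 21 and day 3 of a diet time course, across all genes with adequate counts. The libraries were chosen by their titles: the 3 of the day 21 knockout group that were not described as having failed quality control (libraries 37, 38 and 40) and the 5 of the day 3 knockout group (libraries 2, 3, 4, 22 and 23). These are 8 of the 40 libraries of the series, each from 1 mouse. The knockout mice (labelled KO, called HNKO by the study) carried floxed Nampt alleles (Nampt fl/fl) and Cre under the albumin promoter (Alb-Cre). The study calls the knockout hepatocyte-specific, and deletion in other cells of the liver was not tested here. Floxed littermates without Cre served as wild-type controls (WT), with 5 libraries at day 3 (1, 5, 24, 25 and 26) and 5 at day 21 (19, 20, 21, 39 and 41). All mice were female, of the C57BL/6JBomTac background and, by the study's methods, 9 weeks old when a purified control diet (PD) was begun. The labels give the days as ages, whereas the methods give them as days on PD. Mice of every group ate PD, and those sampled at day 21 were also older, so time on the diet and age cannot be told apart. The material was whole liver. Total RNA, freed of rRNA, was made into stranded libraries that were read as 51-bp paired ends. The comparison asks which genes of the HNKO liver differed between the first and the last day sampled.

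Total counts per library were 24632865, 22559626, 25851672, 33259898 and 18938629 at day 3 (libraries 2, 3, 4, 22 and 23) and 24752696, 21767223 and 28809772 at day 21 (libraries 37, 38 and 40). A two-sided exact permutation test of the totals gave p = 0.964 (n = 5 and 3), and the smallest p that the 56 arrangements allow is 0.0179. Levels below are log2 of counts scaled to library size (log2 CPM) in this library order, and differences are log2 fold changes of day 21 over day 3 with their standard error. A gene is called, and said to have risen or fallen, when edgeR's quasi-likelihood test gave a Benjamini-Hochberg adjusted p under 0.05 over 20297 tested genes. Alb, the main plasma protein made by hepatocytes (chosen after its values were seen), was abundant in every library, at 16.11, 16.09, 16.50, 15.88 and 15.65 at day 3 and 15.91, 16.40 and 15.96 at day 21. Of the 8 hepatocyte markers listed, 0 were called by edgeR, 0 were at an unadjusted p under 0.05 and 0 were called by DESeq2, with a median log2 fold change of −0.13, 0.05 with the term. The marker with the smallest p, Tat, a tyrosine-degrading enzyme, was at 9.93, 10.43, 10.39, 10.23 and 9.17 at day 3 and 8.73, 10.24 and 9.29 at day 21, and the days overlapped.

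NAMPT turns nicotinamide into nicotinamide mononucleotide, the rate-limiting step by which most cells recycle NAD. Hepatocytes can also make NAD from tryptophan and from nicotinic acid, and they use it as the cofactor of oxidoreductases and as the substrate of sirtuins and PARP enzymes. Liver transcripts also follow feeding, the circadian clock and growth hormone, which act on lipid, bile acid and protein folding genes.

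Libraries 35 to 40 stood apart from the other 32 of the 38 libraries that passed quality control. Rps16, a protein of the small ribosomal subunit, was at 2.11 to 3.5 log2 CPM in the 6 (median 2.86) and at 5.27 to 6.10 in the other 32 (median 5.72). mt-Rnr2, the large mitochondrial rRNA, was at 12.96 to 14.05 in the 6 and 14.32 to 15.51 in the other 32. mt-Rnr1, the small mitochondrial rRNA, was at 10.14 to 11.52 and 11.47 to 12.95, so for this RNA the ranges overlapped a little. Rps29, a further protein of the small ribosomal subunit (chosen after its values were seen), was at 5.28 to 5.59 and 5.69 to 6.47. The 6 libraries are the 3 of HNKO at day 21, 2 of HNKO at day 12 (35 and 36) and 1 of WT at day 21 (39), and the labels name no batch. All day 21 HNKO libraries lie inside this run of numbers and all day 3 ones outside it, so within the 8 libraries the day and the run cannot be told apart. A term for libraries 35 to 40, chosen after seeing the data, can still be fitted, because 4 HNKO libraries of day 12 (11, 12, 13 and 32) and 4 WT libraries of day 21 (19, 20, 21 and 41) lie outside the run. Values with this term are marked as such. The failed libraries of day 21, 17 and 18, had Rps16 at 5.22 and 5.50, totals of 12287423 and 15935527, and counts in 13232 and 18593 of the 20297 tested genes.

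**Figure D1:**
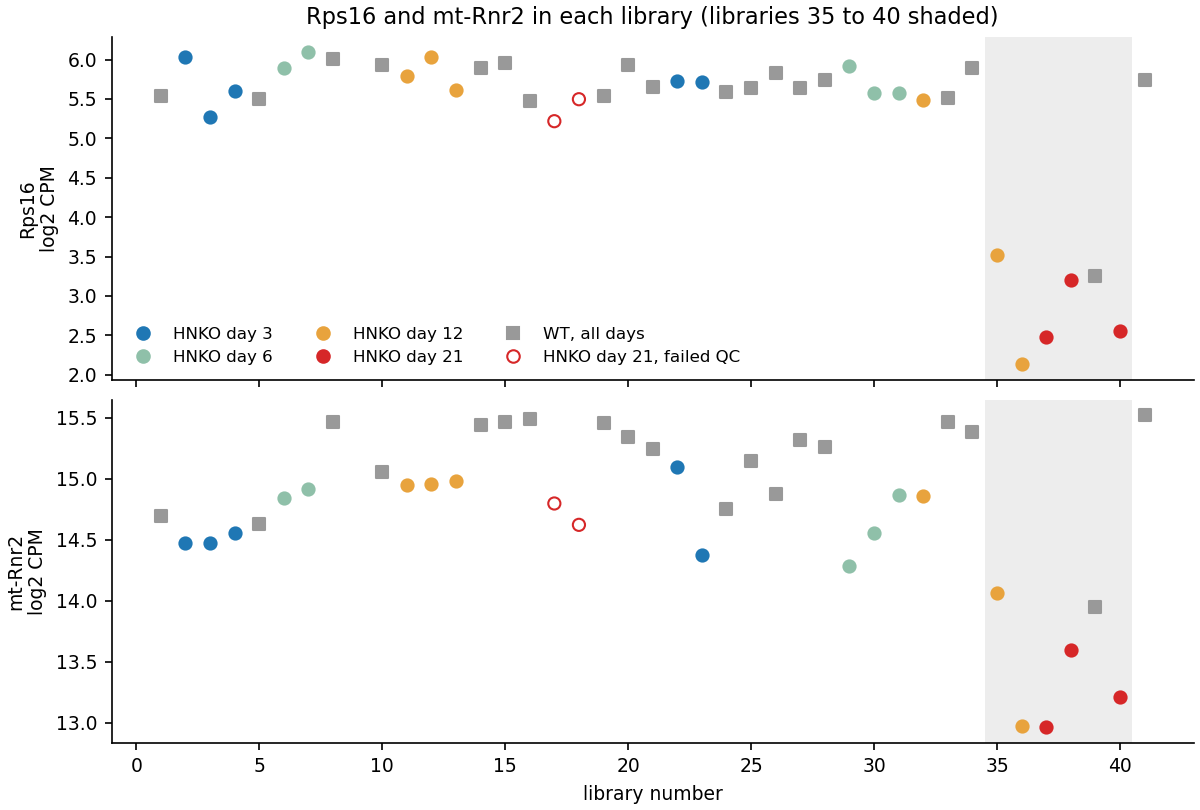
Level of Rps16 (top) and mt-Rnr2 (bottom) in log2 CPM for each of the 40 libraries by library number, with points for HNKO and squares for WT. Libraries 35 to 40 (shaded) lie below the others that passed quality control, with Rps16 at 2.11 to 3.5 against 5.27 to 6.10 in those 32; open points are the 2 that failed.

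Nampt (ENSMUSG00000020572.8, chr12:32819545-32853349, + strand, GRCm38) was at 5.31, 5.38, 5.21, 5.14 and 5.35 at day 3 and 5.55, 6.03 and 5.73 at day 21. Every day 21 library lay above every day 3 library, as was so for 5.49% of all tested genes. The log2 fold change was 0.50 ± 0.26 (adjusted p = 0.325), so the gene was not called across all genes. As a single value the mean was higher by 0.49 log2 CPM (two-sided exact permutation test, p = 0.0179, the smallest that 5 and 3 libraries allow). Only genes whose libraries do not overlap can reach this p, and 2432 of the tested genes (12%) were such. With the term for libraries 35 to 40 the estimate was 0.87 (adjusted p = 0.512). In WT livers Nampt ran from 5.84 to 6.57 at day 3 (median 6.15) and from 6.26 to 6.65 at day 21 (median 6.44), a log2 fold change of 0.26. Each HNKO library of day 3 lay below each of those WT libraries, and so did those of day 21 except library 38, which lay above the lowest WT library of day 3. The counts are per gene and do not resolve the deleted exons, and in bulk RNA fewer cells of a type and less RNA per cell cannot be told apart.

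Between day 3 and day 21, 240 genes rose (1.18% of those tested) and 253 fell (1.25%) in HNKO livers, 493 in all (2.43%). The median log2 fold change was 0.74 for the risen genes (range 0.27 to 6.99) and −0.58 for the fallen ones (−0.28 to −3.00), and 77 and 30 of them changed by more than 2-fold. At an unadjusted p under 0.05, 3525 genes differed (17.4%), of which 1634 were higher (8.05%) and 1891 lower (9.32%). The 3 and 5 libraries did not overlap for 2432 genes (12%), 1114 higher (5.49%) and 1318 lower (6.49%). Among the called genes, 219 of the 240 and 236 of the 253 were free of overlap. For every list of genes or markers in this report, these shares of all tested genes are the background of its counts. In WT livers 666 genes rose (3.28%) and 339 fell (1.67%), 1005 in all (4.95%), and 4139 differed at an unadjusted p under 0.05 (20.4%), 2182 higher (10.8%) and 1957 lower (9.64%). The HNKO and WT comparisons share no libraries. Of the 240 genes that rose in HNKO, 146 also rose in WT, which is 60.8% of the HNKO genes and 21.9% of the WT genes. Of the 253 that fell, 48 also fell in WT, 19% of the HNKO genes and 14.2% of the WT genes. Over the HNKO calls the median WT log2 fold change was 0.61 for the risen and −0.27 for the fallen genes, and edgeR called 0 of them in the opposite direction in WT.

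With the term for libraries 35 to 40 the counts were 51 higher (0.251%) and 3 lower (0.0148%), 54 in all (0.266%), with 1538 genes at an unadjusted p under 0.05 (7.58%), 832 higher (4.1%) and 706 lower (3.48%). Of the 240 risen genes, 240 kept their direction, 142 had an unadjusted p under 0.05 and 13 were called again. Of the 253 fallen genes, 251 kept their direction, 74 had an unadjusted p under 0.05 and 3 were called again. The median log2 fold change moved to 0.52 for the risen genes and to −0.26 for the fallen ones. Over all tested genes the median standard error grew from 0.235 to 0.316. In WT, where 4 of 5 day 21 libraries lie outside the run, 556 genes rose (2.74%) and 250 fell (1.23%) with the term, 806 in all (3.97%), and 3749 differed at an unadjusted p under 0.05 (18.5%), 2004 higher (9.87%) and 1745 lower (8.6%). With the term edgeR called 6 members of the skeletal and smooth muscle list and 0 of each other list of genes or markers, of which the clock list had the most at an unadjusted p under 0.05, 10 higher and 5 lower. Among ribosomal protein genes, grouped after the values were seen, it called 1, Rpl3l, known from striated muscle. The term was not used with DESeq2.

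**Figure D2:**
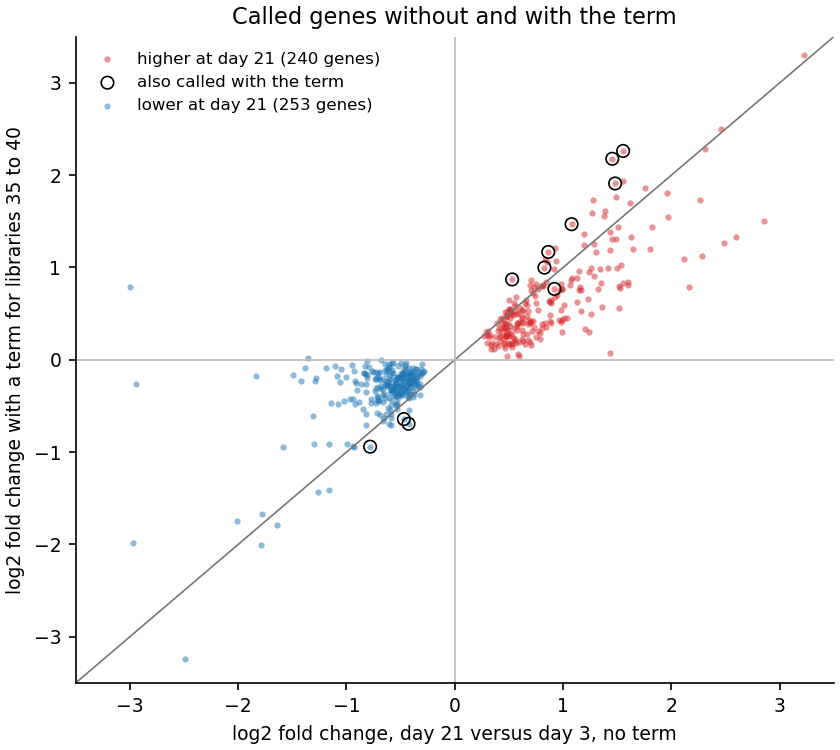
Log2 fold change of day 21 over day 3 in HNKO livers without the term (horizontal) and with a term for libraries 35 to 40 (vertical) for the 240 genes called higher (red) and the 253 called lower (blue); black rings mark genes called both ways and 6 genes lie outside the axes. The grey diagonal marks equal values; the fallen genes lie mostly between it and 0, with a median of −0.58 without and −0.26 with the term.

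Single libraries also weighed on the counts. Without library 38 of day 21, 33 genes were higher and 14 lower; without library 37, 102 and 20; without library 40, 199 and 67. Leaving out library 3 of day 3 gave 106 and 80, library 4 gave 103 and 66, and library 22 gave 242 and 161. With library 2 or 23 left out the counts stayed within 1.5 times of 240 and 253. Leaving out a library also leaves fewer to test. The direction held for all 240 and all 253 genes with each of the 8 libraries left out, except for 1 of the 240 without library 37. This could hardly come out otherwise, because 219 of the 240 and 236 of the 253 had no overlap between the days. It therefore adds no support to the calls.

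Among genes with a symbol other than a predicted-gene number, whose libraries did not overlap, the 10 risen genes with the smallest p were Brpf3, AC117816.1, Slc35d1, Fzd5, Tram2, Rnf152, C77080, Cmip, BC005537 and Atf7. Brpf3, a scaffold of histone acetyltransferase complexes, was at 4.21, 3.99, 3.75, 4.04 and 3.78 at day 3 and 5.03, 4.99 and 4.59 at day 21. The day 21 libraries all lay above the day 3 ones. Its log2 fold change was 0.92 ± 0.12 (adjusted p = 0.000199), 0.91 in WT, and 0.77 with the term (adjusted p = 0.0404). Fzd5, a Wnt receptor, was at 3.01, 2.66, 2.98, 2.90 and 2.60 at day 3 and 3.63, 3.77 and 3.58 at day 21, again without overlap. It rose by 0.83 ± 0.12 (adjusted p = 0.000199), against 0.54 in WT, and by 1.0 with the term (adjusted p = 0.0118). Brpf3 and Fzd5 were called in all 14 alternative settings and with each of the 8 libraries left out. Slc35d1 carries UDP sugars into the endoplasmic reticulum (ER) for glucuronidation and glycan synthesis. Its level was 4.78, 5.32, 5.56, 5.59 and 4.85 at day 3 and 6.44, 6.53 and 6.28 at day 21, so the lowest day 21 library exceeded the highest day 3 one. It rose by 1.16 ± 0.17 (adjusted p = 0.000199; 0.98 in WT), and with the term the estimate was 0.79 (adjusted p = 0.126). Rnf152, a lysosomal ubiquitin ligase, was at 5.13, 4.81, 4.44, 5.0 and 5.09 at day 3 and 6.13, 6.63 and 6.25 at day 21. It was higher in every day 21 library and rose by 1.44 ± 0.21 (adjusted p = 0.000199; 1.04 in WT; 1.19 with the term, adjusted p = 0.0728).

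Tram2, a protein of the ER translocon, rose by 1.15 ± 0.17 from 2.89 to 3.44 at day 3 to 4.03 to 4.55 at day 21, and by 1.27 in WT. Atf7, a leucine zipper transcription factor, rose by 0.68 ± 0.12, and Cmip, an adaptor protein, by 0.88 ± 0.14. C77080 rose by 0.88 ± 0.14, BC005537 by 0.58 ± 0.09 and AC117816.1 (chr19:31950084-31952361) by 0.97 ± 0.14. All 10 had a WT log2 fold change of the same sign, from 0.54 (Fzd5) to 1.27 (Tram2). With the term the estimates for these last 6 were 0.76, 0.38, 0.63, 0.40, 0.32 and 0.75, none called. The largest step down among the 10 was that of C77080 (0.88 to 0.40).

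**Figure D3:**
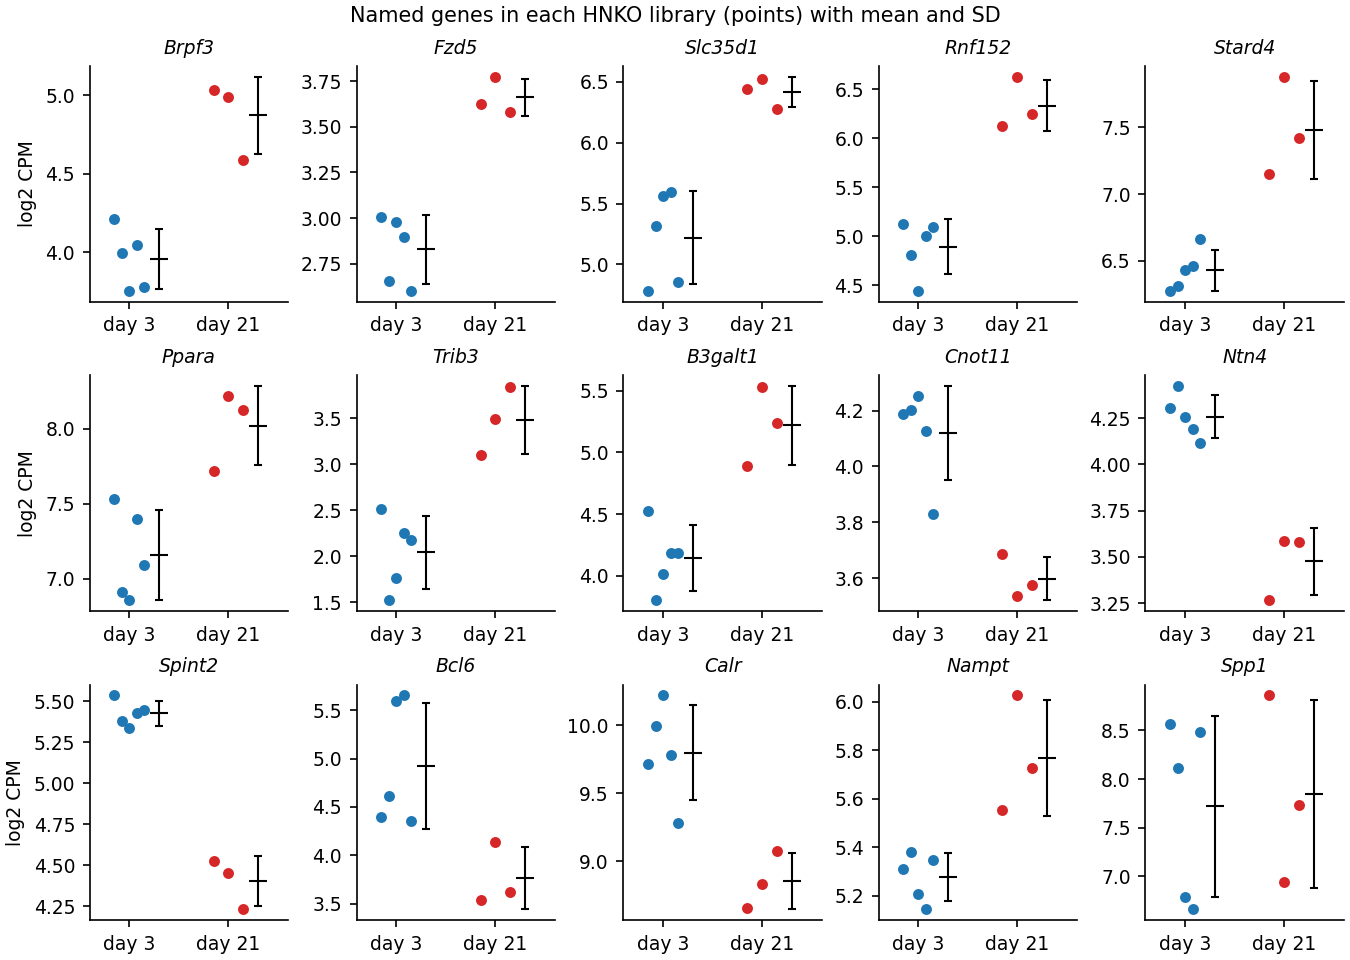
Log2 CPM of 15 named genes in each HNKO library at day 3 (blue points, n = 5) and day 21 (red points, n = 3), with the mean and SD beside them. Brpf3, Fzd5 and Stard4 do not overlap between days, whereas the points of Spp1 do.

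The 10 fallen genes chosen the same way were Cnot11, Rps16, Mettl16, Las1l, Spint2, Ntn4, Ube2g2, Psmd7, Emc4 and Ddx3x. Cnot11, a subunit of the CCR4-NOT complex that shortens mRNA tails, was at 4.19, 4.20, 4.25, 4.13 and 3.83 at day 3 and 3.69, 3.53 and 3.58 at day 21. No day 21 library reached the lowest day 3 one. Its log2 fold change was −0.53 ± 0.09 (adjusted p = 0.00357), against −0.16 in WT and −0.47 with the term (adjusted p = 0.13). Ntn4, a netrin of basement membranes, was at 4.31, 4.42, 4.25, 4.19 and 4.11 at day 3 and 3.27, 3.58 and 3.58 at day 21, without overlap. Its log2 fold change was −0.78 ± 0.15 (adjusted p = 0.00507), −0.30 in WT and −0.94 with the term (adjusted p = 0.0381); the call was lost without library 37 (adjusted p = 0.0549). Spint2, an inhibitor of serine proteases such as the activator of hepatocyte growth factor, was at 5.54, 5.38, 5.33, 5.43 and 5.44 at day 3 and 4.53, 4.45 and 4.23 at day 21. The days were well apart, with a log2 fold change of −1.02 ± 0.19 (adjusted p = 0.00507), −0.21 in WT and −0.45 with the term (adjusted p = 0.633). Rps16 was at 6.04, 5.27, 5.59, 5.71 and 5.73 at day 3 and 2.47, 3.19 and 2.54 at day 21. Its log2 fold change of −2.94 ± 0.53 (adjusted p = 0.00373) was −0.27 with the term (adjusted p = 0.914).

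Mettl16, a methyltransferase of RNA adenosine, fell from 4.13 to 4.69 at day 3 to 3.77 to 3.88 at day 21 (−0.58 ± 0.11; −0.44 with the term). Las1l, which processes ribosomal RNA precursors, had a log2 fold change of −0.64 ± 0.12 (−0.41 with the term) and Ddx3x, an RNA helicase, −0.61 ± 0.12 (−0.41). Psmd7, a subunit of the proteasome lid, fell from 5.10 to 5.4 to 4.36 to 4.62 (−0.73 ± 0.14; −0.30 with the term). Ube2g2, a ubiquitin-conjugating enzyme of ER-associated degradation, had −0.69 ± 0.13 (−0.60 with the term), and Emc4, of the complex that inserts membrane proteins in the ER, −0.60 ± 0.12 (−0.17). None of these 6 was called with the term. Cnot11 lost its call without library 38 (adjusted p = 0.0565) and so did Ube2g2 (0.0603). Psmd7 lost its call without library 37 (adjusted p = 0.0621) and so did Emc4 (0.0621).

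Called both without and with the term were 16 genes, 13 risen and 3 fallen. They were chosen after their values were seen, apart from Brpf3, Fzd5, Ntn4 and B3galt1. Ugcg, which makes glucosylceramide, was at 5.39, 5.15, 5.26, 5.4 and 5.73 at day 3 and 5.83, 5.97 and 5.98 at day 21. The days did not overlap. It rose by 0.53 ± 0.14 (adjusted p = 0.0438) and by 0.87 with the term (0.0381). B3galt1, a galactosyltransferase of glycan synthesis, was at 4.53, 3.80, 4.01, 4.19 and 4.19 at day 3 and 4.89, 5.53 and 5.24 at day 21, with no overlap. It rose by 1.08 ± 0.24 (adjusted p = 0.0127) and by 1.47 with the term, but lost its call without library 38 (adjusted p = 0.114). Azin2, an inhibitor of the antizyme that limits polyamine synthesis, was at 0.64, −0.24, 0.84, 0.49 and 0.16 at day 3 and 1.64, 1.72 and 2.34 at day 21 and rose by 1.55 ± 0.36 (2.26 with the term). Tns2, a focal adhesion protein, was at 5.88, 5.44, 5.83, 5.75 and 5.28 at day 3 and 6.53, 6.64 and 6.37 at day 21 and rose by 0.86 ± 0.19 (1.17 with the term). The days did not overlap for either gene. The 3 fallen genes were Ntn4, Nat10 and Clec14a. Nat10, which acetylates cytidines in RNA, was at 4.65, 4.95, 4.81, 4.87 and 4.81 at day 3 and 4.35, 4.36 and 4.35 at day 21, and Clec14a, an endothelial lectin, was at 5.06, 4.76, 5.08, 4.92 and 5.14 at day 3 and 4.43, 4.63 and 4.65 at day 21. Neither overlapped between the days. Their log2 fold changes were −0.47 ± 0.10 and −0.43 ± 0.11 without and −0.64 and −0.69 with the term. Ugcg lost its call without library 2, 3, 4, 22, 37, 38 or 40 (adjusted p up to 0.147). The call of Azin2 was lost without library 3, 38 or 40 (adjusted p up to 0.0968). Tns2 lost its call without library 37 or 38 (adjusted p up to 0.0842). The call of Nat10 was lost without library 37 or 38 (adjusted p up to 0.0771). Clec14a lost its call without library 4, 23, 37, 38 or 40 (adjusted p up to 0.183). The others included Unc45b, Atp2a1, Myom2, Jph1 and Nrap, known from striated muscle, and Gm43909.

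Muscle RNA was unevenly spread over the libraries. The 10 genes of the skeletal and smooth muscle list summed, in CPM, to 16.3, 12.2, 12.8, 8.32 and 30.5 at day 3 and 366, 16.2 and 12.1 at day 21. Acta1, the actin of skeletal muscle (chosen after its values were seen), was at −3.21, −3.80, −2.70, −2.91 and 3.06 at day 3 and 7.26, −2.01 and −3.28 at day 21. Of these 8, library 37 was far above the rest, library 23 came next and the others were near the floor. Of the list, edgeR called 0 genes, 7 were higher at an unadjusted p under 0.05, and DESeq2 called 0. Mylpf, a myosin light chain and the member with the smallest p, was at −0.46, −0.77, −1.18, −1.30 and 0.82 at day 3 and 4.07, −1.09 and −1.28 at day 21; its log2 fold change was 3.05 ± 1.03 (adjusted p = 0.0989), and −0.92 without library 37. With the term 6 of the list were called higher. Of the 51 genes called higher with the term, 40 had library 37 more than 2 log2 units above each of the other 7 libraries, and of the 240 called without it, 4 did. Acta1 was also at 7.46 and 5.04 in HNKO libraries 11 and 13 of day 12 and at 3.71 and 5.13 in WT libraries 19 and 21 of day 21, against −2.88, −3.32 and −3.80 in libraries 35, 36 and 39. These groups have libraries in and outside 35 to 40 and so set the term, with which the log2 fold change of Acta1 was 15.11, against 4.97 without it. Muscle RNA in those libraries thus enters the estimates with the term, and its part in the other results was not tested.

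Of the NAD genes listed, Parp4 was the 1 called. Of the 15 genes of salvage and nicotinamide handling, edgeR called 0, 3 were higher and 0 lower at an unadjusted p under 0.05, and DESeq2 called 1; the median log2 fold change was 0.10 against 0.00 for all tested genes (0.24 in WT, 0.13 with the term). Nnt, the transhydrogenase that links mitochondrial NADH and NADPH, had the smallest p. It was at 2.40, 2.21, 2.06, 2.11 and 1.93 at day 3 and 2.78, 2.67 and 2.67 at day 21, so the days did not overlap, with a log2 fold change of 0.56 ± 0.18 (adjusted p = 0.0828; 0.34 with the term). Of 10 tested genes of the route from tryptophan, edgeR called 0, 1 was lower at an unadjusted p under 0.05 and DESeq2 called 1 lower, with a median of −0.21, −0.23 with the term. That gene was Haao, which opens the ring of hydroxyanthranilate, at 8.52, 9.03, 9.35, 8.85 and 8.07 at day 3 and 7.83, 8.28 and 8.40 at day 21 (−0.64 ± 0.21, adjusted p = 0.0814). Its days overlapped. Among 19 NAD consumers 1 rose, 4 were higher and 3 lower at an unadjusted p under 0.05, and the median was −0.04, 0.06 with the term. Parp4, the PARP of vault particles, was at 4.70, 4.61, 4.41, 4.70 and 4.53 at day 3 and 5.34, 5.24 and 5.03 at day 21 and rose by 0.62 ± 0.12 (adjusted p = 0.00624; 0.59 in WT). The days did not overlap, and the call held with each library left out, but with the term the estimate was 0.33 (adjusted p = 0.626).

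In lipid metabolism a sterol carrier and a nuclear receptor rose. Stard4, a carrier of sterols inside cells, was at 6.27, 6.32, 6.43, 6.46 and 6.66 at day 3 and 7.15, 7.88 and 7.42 at day 21. All day 21 libraries lay above all day 3 ones, and the log2 fold change was 1.08 ± 0.19 (adjusted p = 0.00287; 0.58 in WT; 0.87 with the term, adjusted p = 0.219). Ebp, a sterol isomerase of late cholesterol synthesis, was at 7.55, 7.82, 7.95, 7.66 and 7.09 at day 3 and 6.81, 7.10 and 7.19 at day 21. It fell (−0.60 ± 0.14, adjusted p = 0.0217; −0.49 in WT; −0.54 with the term), with overlap between the days. Of the 24 cholesterol synthesis genes these were the 2 called (3 higher and 1 lower by DESeq2); 8 were higher and 1 lower at an unadjusted p under 0.05, 8 were higher without overlap (for all tested genes 1.18% rose, 8.05% were higher at an unadjusted p under 0.05 and 5.49% were higher without overlap), and the median was 0.22 (0.01 in WT, 0.13 with the term). In WT edgeR called 4 of them higher and 1 lower, and with the term 0 in HNKO (3 higher and 1 lower at an unadjusted p under 0.05). Ppara, the nuclear receptor that drives fatty acid oxidation genes, was at 7.53, 6.91, 6.86, 7.40 and 7.09 at day 3 and 7.72, 8.21 and 8.12 at day 21. No day 21 library overlapped day 3, and the gene rose by 0.85 ± 0.21 (adjusted p = 0.0233; 0.41 in WT; 1.06 with the term, adjusted p = 0.133). It was the 1 gene called of 28 PPARA targets and fatty acid oxidation genes (1.18% of all tested genes rose). Of the 28, 6 were higher and 0 lower at an unadjusted p under 0.05 (8.05% of all tested genes were higher). The number higher was 5 with the term and 3 in WT. Their median was 0.24 (0.11 in WT, 0.27 with the term). Of 24 lipogenesis genes edgeR and DESeq2 called 0, and 0 had an unadjusted p under 0.05 (median −0.08, −0.58 with the term). Stard4 kept its call with each of the 8 libraries left out. Ppara lost its call without library 3, 4, 38 or 40 (adjusted p up to 0.137) and Ebp without library 3, 4, 37 or 38 (adjusted p up to 0.173).

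Transporters and enzymes of bile and glucose handling held a few calls near the threshold. Slc2a2, the glucose transporter of hepatocytes, was at 8.87, 9.14, 8.71, 8.99 and 8.93 at day 3 and 9.34, 9.79 and 9.44 at day 21. It rose by 0.60 ± 0.17 (adjusted p = 0.0498) without overlap, the 1 call among 26 gluconeogenesis and glycolysis genes (1 higher and 1 lower at an unadjusted p under 0.05, median −0.03, −0.14 with the term). Abcc2, the export pump for conjugates into bile, was at 9.01, 9.10, 9.08, 9.40 and 9.0 at day 3 and 9.41, 9.79 and 9.67 at day 21 and rose by 0.51 ± 0.14 (adjusted p = 0.0474; 0.60 in WT). Cyp2c70, the enzyme that makes muricholic acids in mice, was at 8.59, 9.31, 9.72, 9.49 and 8.78 at day 3 and 8.21, 8.27 and 8.71 at day 21 and fell (−0.82 ± 0.23, adjusted p = 0.0469; −0.87 in WT), with overlap at libraries 2 and 40. They were the 2 calls among 24 bile acid genes, where 3 were higher and 3 lower at an unadjusted p under 0.05 (median −0.04, 0.13 with the term). Gstt2, a glutathione transferase, was at 5.32, 5.0, 4.87, 5.03 and 5.38 at day 3 and 5.57, 6.20 and 6.31 at day 21, without overlap, and rose by 0.93 ± 0.25 (adjusted p = 0.0392; 1.21 with the term). It was the 1 call among 39 conjugation genes (2 higher and 4 lower at an unadjusted p under 0.05, median −0.09, −0.21 with the term). With the term the estimates of Slc2a2, Abcc2 and Cyp2c70 were 0.56, 0.46 and −0.71, none called. Slc2a2 lost its call with any 1 of the 8 libraries left out (adjusted p up to 0.268). The call of Abcc2 was lost without library 2, 3, 4, 23, 37, 38 or 40 (adjusted p up to 0.222), that of Cyp2c70 without library 3, 4, 22, 37, 38 or 40 (adjusted p up to 0.217) and that of Gstt2 without library 3, 4, 22, 38 or 40 (adjusted p up to 0.158).

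Of 30 genes of the urea cycle and amino acid catabolism, edgeR called 0, 2 were higher and 5 lower at an unadjusted p under 0.05, and DESeq2 called 1 lower; the median was −0.30 (−0.23 in WT, −0.29 with the term). Fah, the last enzyme of tyrosine breakdown, was at 8.84, 9.28, 9.57, 9.20 and 8.57 at day 3 and 8.14, 8.64 and 8.75 at day 21 (−0.60 ± 0.20, adjusted p = 0.0861), and its days overlapped. Of 31 tested cytochrome P450 genes, edgeR called 0, 1 was higher and 4 lower at an unadjusted p under 0.05, and DESeq2 called 1 lower, with a median of −0.24, −0.21 with the term. Cyp2b10, a target of the receptor CAR, was at 0.50, 1.98, 2.59, 1.94 and −0.09 at day 3 and −0.74, 0.73 and −0.99 at day 21, a wide spread within day 3.  Among 19 pericentral genes Znrf3 alone was called; 2 were higher and 1 lower at an unadjusted p under 0.05, and the median was 0.18, 0.07 with the term. Znrf3, a ligase that removes Wnt receptors from the cell surface, was at 4.01, 4.29, 3.85, 4.28 and 4.15 at day 3 and 4.73, 4.79 and 4.63 at day 21. It rose by 0.59 ± 0.17 without overlap (adjusted p = 0.0474; 0.65 in WT), but its estimate was 0.05 with the term. Among 18 periportal genes Ifitm3 was the 1 call (1.25% of all tested genes fell). At an unadjusted p under 0.05, 0 were higher and 6 lower (9.32% of all tested genes were lower). The number lower was 1 with the term and 5 in WT. Their median was −0.40 (−0.20 in WT, −0.49 with the term). Ifitm3, an antiviral membrane protein induced by interferon, was at 7.81, 8.07, 7.94, 8.02 and 7.87 at day 3 and 7.34, 7.34 and 7.28 at day 21. It fell (−0.62 ± 0.16, adjusted p = 0.029; −0.44 in WT) without overlap, and its estimate was −0.12 with the term. Znrf3 lost its call without library 2, 3, 4, 23, 37, 38 or 40 (adjusted p up to 0.162), and Ifitm3 without library 3, 4, 22, 37, 38 or 40 (adjusted p up to 0.139).

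On the growth hormone axis Cish rose and Bcl6 fell. Cish, an inhibitor of cytokine signalling that STAT5 induces, was at 3.41, 3.07, 2.98, 3.73 and 3.69 at day 3 and 5.09, 5.32 and 4.28 at day 21. The lowest day 21 library, 40, lay above the highest of day 3. The log2 fold change was 1.55 ± 0.39 (adjusted p = 0.0253), 0.42 in WT and 1.94 with the term (adjusted p = 0.143). Bcl6, a transcriptional repressor that growth hormone lowers through STAT5, was at 4.39, 4.61, 5.59, 5.65 and 4.35 at day 3 and 3.53, 4.14 and 3.62 at day 21. Libraries 4 and 22 were about as high as each other and above the other 3 of day 3, and all day 21 libraries were lower. Its log2 fold change was −1.26 ± 0.30 (adjusted p = 0.0181), −0.34 in WT and −1.43 with the term (adjusted p = 0.137). The test of the difference between genotypes gave an unadjusted p of 0.0346 for Cish and 0.0197 for Bcl6 by edgeR (adjusted p = 1 for both). These were the 2 calls among 33 tested genes of the axis and the major urinary proteins, where 3 were higher and 3 lower at an unadjusted p under 0.05 and the median was −0.29, −0.28 with the term (−0.50 in WT). Cish lost its call without library 3, 4, 37 or 38 (adjusted p up to 0.152), and Bcl6 without library 4, 22, 37, 38 or 40 (adjusted p up to 0.115).

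Of 31 heat shock and ER chaperone genes 29 were below 0 in log2 fold change, 4 fell and 0 rose by edgeR (6 lower and 0 higher by DESeq2), 19 were lower and 0 higher at an unadjusted p under 0.05, and 12 were lower without overlap. Of all tested genes 1.25% fell, 9.32% were lower at an unadjusted p under 0.05 and 6.49% were lower without overlap. The median log2 fold change was −0.33 against 0.00 for all tested genes, −0.22 in WT and −0.26 with the term, where 0 were called by edgeR and 2 were lower at an unadjusted p under 0.05. In WT edgeR called 2 of the 31 lower and 0 higher, and 10 were lower and 0 higher at an unadjusted p under 0.05. The summed level of the 31 genes in HNKO was, in CPM, 5973, 6922, 7529, 7423 and 6014 at day 3 and 4322, 5244 and 5339 at day 21, so the 3 day 21 libraries were the lowest of the 8. Calr, the calcium-binding lectin chaperone calreticulin, was at 9.71, 10, 10.22, 9.78 and 9.28 at day 3 and 8.66, 8.83 and 9.07 at day 21. The days did not overlap, and it fell (−0.97 ± 0.23, adjusted p = 0.0199; −0.64 in WT; −0.43 with the term). Hsp90b1, the HSP90 of the ER, was at 9.45, 9.72, 9.93, 9.65 and 9.43 at day 3 and 8.80, 9.19 and 9.26 at day 21, also without overlap (−0.55 ± 0.15, adjusted p = 0.0453; −0.27 with the term). Dnajb11, a partner of the ER chaperone BiP, was at 6.11, 6.48, 6.69, 6.63 and 6.00 at day 3 and 5.42, 5.79 and 6.00 at day 21, with libraries 23 and 40 level (−0.66 ± 0.17, adjusted p = 0.0384; −0.37 with the term). Pdia4, a protein disulfide isomerase, was at 8.19, 8.47, 8.55, 8.53 and 8.11 at day 3 and 7.77, 8.0 and 8.10 at day 21, with library 40 just under the lowest of day 3 (−0.42 ± 0.12, adjusted p = 0.0485; −0.26 with the term). In WT the log2 fold changes of Hsp90b1, Dnajb11 and Pdia4 were −0.25, −0.39 and −0.31. Hspa5, which encodes BiP (chosen after its values were seen), was at 9.09, 9.54, 9.46, 10.04 and 9.55 at day 3 and 8.88, 9.16 and 9.01 at day 21 and was not called (adjusted p = 0.247). The call of Calr was lost without library 3, 4, 37 or 38 (adjusted p up to 0.131), that of Dnajb11 without library 3, 4, 22, 37 or 38 (adjusted p up to 0.241), that of Hsp90b1 without library 3, 4, 22, 37, 38 or 40 (adjusted p up to 0.269) and that of Pdia4 without library 3, 4, 22, 37, 38 or 40 (adjusted p up to 0.279).

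**Figure D4:**
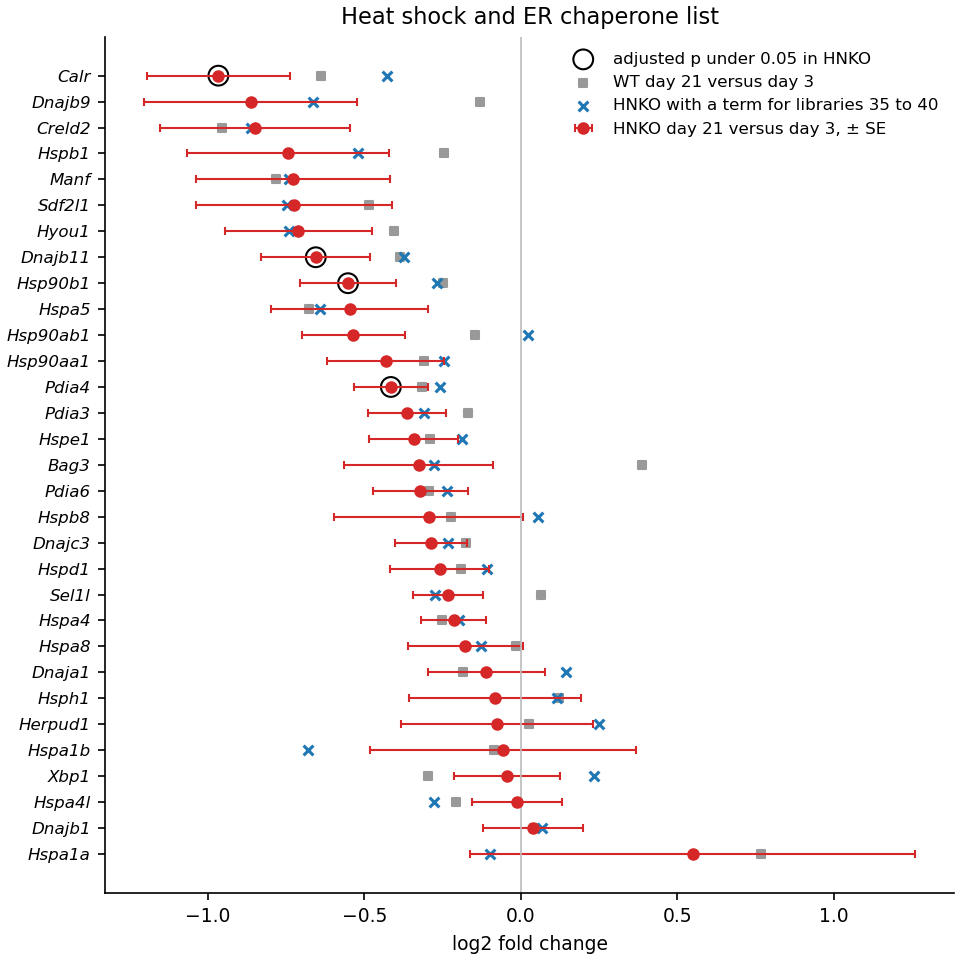
Log2 fold change of day 21 over day 3 for each of the 31 heat shock and ER chaperone genes in HNKO livers (red, ± SE), in HNKO livers with a term for libraries 35 to 40 (blue crosses) and in WT livers (grey squares). Red points lie left of 0 for 29 of the 31 genes; black rings mark Calr, Dnajb11, Hsp90b1 and Pdia4, which passed the adjusted test.

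The promoters of chaperone genes were searched, after the values were seen, for the ER stress response element, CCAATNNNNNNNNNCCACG on either strand. The sequences come from RefSeq (GRCm38.p6) and run from 250 bases before to 50 after the start of transcription. The element was in 35 of 27025 promoters (0.130%), in 19 of 12472 of tested genes (0.152%) and in 6 of the 26 chaperone promoters matched by symbol (23.1%): Calr, Creld2, Dnajc3, Hsp90b1, Hspa5 and Pdia6. Of the 4 fallen genes it was in 2, Calr and Hsp90b1. Both are shown because they fell and hold the element; capitals mark its fixed letters, read as CGTGG and ATTGG on the opposite strand. Calr is at chr8:84846882-84847181 (− strand) and Hsp90b1 at chr10:86705395-86705694 (− strand). A match describes the letters of this window and no more.
Calr: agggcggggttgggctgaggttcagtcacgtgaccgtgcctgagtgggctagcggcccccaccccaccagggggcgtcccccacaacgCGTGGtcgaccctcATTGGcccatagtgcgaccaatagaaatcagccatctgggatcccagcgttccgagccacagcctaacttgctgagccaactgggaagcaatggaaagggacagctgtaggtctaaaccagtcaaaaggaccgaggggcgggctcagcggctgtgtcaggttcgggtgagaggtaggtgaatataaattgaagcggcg
Hsp90b1: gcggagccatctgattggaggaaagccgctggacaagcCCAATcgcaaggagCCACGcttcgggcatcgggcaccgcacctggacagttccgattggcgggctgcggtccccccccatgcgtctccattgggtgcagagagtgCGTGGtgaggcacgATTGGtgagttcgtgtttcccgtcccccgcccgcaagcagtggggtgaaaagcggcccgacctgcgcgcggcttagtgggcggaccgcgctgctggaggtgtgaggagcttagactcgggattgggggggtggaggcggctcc

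In the integrated stress response 1 of 32 genes rose and 1 fell, against 1.18% and 1.25% of all tested genes. At an unadjusted p under 0.05, 2 were higher and 7 lower, against 8.05% and 9.32% of all tested genes. The number lower was 0 with the term and 2 in WT. Their median was −0.08, −0.16 with the term. Trib3, a pseudokinase induced by ATF4 and CHOP, was at 2.51, 1.52, 1.76, 2.25 and 2.17 at day 3 and 3.10, 3.49 and 3.84 at day 21. Every day 21 library lay above day 3, and it rose by 1.43 ± 0.31 (adjusted p = 0.0111; 0.33 in WT; 1.38 with the term, adjusted p = 0.265). Slc3a2, the heavy chain of amino acid exchangers, was at 5.35, 5.49, 5.36, 5.18 and 5.11 at day 3 and 4.88, 4.77 and 4.57 at day 21 and fell without overlap (−0.56 ± 0.13, adjusted p = 0.0218; −0.14 in WT; −0.30 with the term). Atf4 itself and Ddit3, which encodes CHOP (both chosen after their values were seen), were at 6.50, 6.75, 6.44, 6.49 and 6.18 at day 3 and 6.17, 6.4 and 6.19 at day 21, and at 2.80, 3.04, 3.08, 2.95 and 2.78 at day 3 and 2.63, 2.53 and 2.52 at day 21, neither called (adjusted p = 0.452 and 0.427). Trib3 lost its call without library 38 or 40 (adjusted p up to 0.0619), and Slc3a2 without library 3, 4, 37, 38 or 40 (adjusted p up to 0.12).

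Of 19 clock genes edgeR called 0, 11 were higher and 2 lower at an unadjusted p under 0.05, 8 were higher and 3 lower without overlap, and DESeq2 called 2 higher and 1 lower. Of all tested genes 8.05% were higher and 9.32% lower at an unadjusted p under 0.05, and 5.49% and 6.49% without overlap. The median log2 fold change of the clock genes was 0.72, 0.50 in WT and 1.08 with the term. Nr1d1, the clock repressor REV-ERB alpha, had the smallest p. It was at 5.51, 5.29, 5.45, 5.68 and 5.11 at day 3 and 6.21, 6.56 and 6.54 at day 21, without overlap (1.03 ± 0.29, adjusted p = 0.0519; 0.76 in WT; 1.44 with the term, adjusted p = 0.143). Chosen after their values were seen, Dbp, an output factor of the clock, was at 3.5, 3.29, 3.91, 4.06 and 3.22 at day 3 and 5.0, 6.13 and 6.28 at day 21, and Arntl, which encodes its activator BMAL1, at 4.63, 4.25, 4.32, 3.55 and 4.28 at day 3 and 3.43, 1.92 and 1.76 at day 21. For both genes library 37 lay between day 3 and libraries 38 and 40. The labels give no time of day for the sampling, and its part was not tested. Of 25 tested immediate early genes, edgeR called 0 and DESeq2 called 1 higher (median 0.39, 0.67 with the term, 0.11 in WT). At an unadjusted p under 0.05, 6 were higher and 1 lower, against 8.05% and 9.32% of all tested genes. The number higher was 4 with the term and 2 in WT. Nr4a2, an orphan nuclear receptor, was at 0.26, −0.10, −1.65, −0.92 and 0.21 at day 3 and 0.33, 2.06 and −0.25 at day 21 (adjusted p = 0.0882), with library 38 far above the rest.

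Mitochondrial mRNA as counted here took a mean of 2.24% ± 0.531 of counts at day 3 and 1.59% ± 0.127 at day 21 (SD, n = 5 and 3), a difference of −0.648 (exact permutation test, two-sided p = 0.0893). The value sums only the 8 of the 13 mRNAs that were tested, so it is not the share of all mitochondrial mRNA. At day 3 the counted share was 2.38%, 2.79% and 2.64% in libraries 2, 3 and 4 but 1.78% and 1.58% in libraries 22 and 23, against 1.46%, 1.71% and 1.59% in libraries 37, 38 and 40, so libraries 22 and 23 lay in or just above the range of day 21. In HNKO at day 12 it was 2.60% to 2.83% in libraries 11 to 13 and 1.58% to 1.89% in libraries 32, 35 and 36. WT at day 3 had 2.66% to 2.80% in libraries 1 and 5 and 1.82% to 1.95% in libraries 24 to 26. WT at day 21 had 1.84% to 2.07% in libraries 19 to 21, and 1.93% and 2.84% in libraries 39 and 41. The part of the library number in the difference was not tested. Of 8 tested mitochondrially encoded mRNAs edgeR and DESeq2 called 0, and 4 were lower at an unadjusted p under 0.05 (9.32% of all tested genes were lower). The number lower was 0 with the term and 0 in WT. Their median was −0.56, 0.06 in WT and 0.01 with the term. The other 5 of the 13, mt-Nd4l, mt-Co2, mt-Co3, mt-Atp6 and mt-Atp8, did not pass the filter on counts. mt-Cytb, the cytochrome b mRNA, was at 11.50, 11.82, 12.12, 11.29 and 10.72 at day 3 and 10.25, 10.84 and 10.62 at day 21 (−0.98 ± 0.36, adjusted p = 0.129; −0.16 with the term), and the days overlapped. Both mitochondrial rRNAs, measured here after rRNA depletion, were called: mt-Rnr1 was at 11.77, 11.65, 11.70, 12.47 and 11.67 at day 3 and 10.20, 10.75 and 10.14 at day 21 and mt-Rnr2 at 14.48, 14.47, 14.55, 15.09 and 14.40 at day 3 and 12.96, 13.58 and 13.19 at day 21. Their log2 fold changes were −1.5 ± 0.32 and −1.35 ± 0.32 without and −0.16 and 0.02 with the term, and the calls were lost without library 37 or 40 (adjusted p up to 0.0776) and without library 37, 38 or 40 (adjusted p up to 0.116). Of 40 nuclear subunits of complexes I and II, 1 fell by edgeR (1.25% of all tested genes fell) and 2 by DESeq2. At an unadjusted p under 0.05, 0 were higher and 10 lower (9.32% of all tested genes were lower). The number lower was 0 with the term and 17 in WT, where edgeR called 3 lower. Their median was −0.09, −0.21 with the term (−0.22 in WT). Ndufs6, a subunit of complex I, was at 5.46, 5.56, 5.64, 5.4 and 5.02 at day 3 and 4.58, 4.78 and 4.87 at day 21. It fell without overlap (−0.69 ± 0.18, adjusted p = 0.04), but was at −0.22 with the term, and the call was lost without library 2, 3, 4, 22, 37, 38 or 40 (adjusted p up to 0.204). Of 32 subunits of complexes III to V, edgeR called 0, 0 were higher and 4 lower at an unadjusted p under 0.05, and DESeq2 called 2 lower (median −0.07, −0.21 with the term). Cox6a1, of cytochrome oxidase, was at 7.12, 7.37, 7.16, 7.17 and 6.85 at day 3 and 6.55, 6.83 and 6.80 at day 21 (−0.41 ± 0.12, adjusted p = 0.0651). Of the 81 ribosomal protein genes 2 fell, Rps16 and Rps29, 2 were higher and 17 lower at an unadjusted p under 0.05 (9.32% of all tested genes were lower), 14 were lower without overlap (6.49% of all), and the median was −0.04, −0.08 with the term. With the term 1 rose (Rpl3l, known from striated muscle like other genes called with the term), 0 fell and 0 were lower at an unadjusted p under 0.05 by edgeR. In WT 4 fell and 27 were lower at an unadjusted p under 0.05. Rps29 was at −0.21 with the term, and its call was lost without library 37 or 38 (adjusted p up to 0.0738).

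Of 17 tested cholangiocyte and oval cell markers, edgeR and DESeq2 called 0, 1 was higher and 0 lower at an unadjusted p under 0.05, and the median was −0.13, −0.02 with the term. With the term 4 were lower at an unadjusted p under 0.05 (Krt19, Muc1, Prom1 and Epcam; 3.48% of all tested genes) and edgeR called 0. Spp1, osteopontin and the most abundant of them (chosen after its values were seen), was at 8.57, 8.11, 6.78, 6.66 and 8.49 at day 3 and 8.86, 6.94 and 7.74 at day 21, and Pkhd1, of bile duct cilia, at 6.47, 6.16, 6.42, 6.22 and 6.61 at day 3 and 6.82, 6.54 and 6.71 at day 21. Spp1 spread over nearly the same range on both days. Of 17 stellate cell and myofibroblast markers, edgeR and DESeq2 called 0, 2 were higher and 2 lower at an unadjusted p under 0.05 (median 0.02, 0.17 with the term). Des, desmin of stellate and muscle cells, was at 2.78, 2.33, 2.54, 1.75 and 2.56 at day 3 and 4.95, 2.46 and 2.45 at day 21, high in library 37 alone. Of 17 endothelial markers edgeR called 0, 1 was higher and 2 lower at an unadjusted p under 0.05 and DESeq2 called 1 (median 0.00, −0.05 with the term). Bmp2, an endothelial signal to hepatocytes that raises hepcidin, was at 4.31, 4.23, 4.56, 4.50 and 4.37 at day 3 and 4.57, 4.95 and 4.88 at day 21 (0.41 ± 0.12, adjusted p = 0.0542), without overlap. Of 10 Kupffer cell markers edgeR called 0, 1 was higher at an unadjusted p under 0.05 and DESeq2 called 1 (median −0.08, −0.05 with the term). Slc40a1, the iron exporter ferroportin, was at 7.63, 7.87, 7.85, 8.28 and 8.05 at day 3 and 8.19, 8.72 and 8.42 at day 21 (0.51 ± 0.15, adjusted p = 0.0651), with overlap. Of 16 markers of recruited monocytes and macrophages edgeR and DESeq2 called 0, 1 was higher and 1 lower at an unadjusted p under 0.05 (median −0.13, 0.26 with the term); Cd68, a macrophage lysosomal protein, was at 4.43, 4.60, 3.98, 3.63 and 4.28 at day 3 and 3.57, 3.61 and 3.40 at day 21, lower in each day 21 library.

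For each of the following lists of blood, immune and capsule markers edgeR and DESeq2 called 0. Neutrophil markers (7 tested of 12) had 0 at an unadjusted p under 0.05 and a median of −0.16, 0.50 with the term, with Mmp8, a collagenase, at −1.98, −0.88, −3.15, −2.16 and −2.03 at day 3 and −2.08, −2.29 and −2.91 at day 21. For B and plasma cells (11 tested of 12) the figures were 0 and −0.37, 0.00 with the term, against a WT median of −1.49 with 6 genes called lower in WT. Igkc, the kappa light chain, was at 3.62, 2.75, 2.40, 1.69 and 3.58 at day 3 and 2.28, 1.01 and 0.89 at day 21, and its days overlapped at library 22. T and NK cell markers (14) had 1 lower and a median of −0.16, −0.10 with the term: Gzmb, a cytotoxic protease, was at −0.03, 0.14, 0.02, −0.56 and 0.67 at day 3 and −0.67, −2.01 and −0.68 at day 21. Dendritic cell markers (8) had 0 and 0.09, 0.14 with the term, with Zbtb46 at 3.86, 3.86, 3.76, 3.86 and 4.02 at day 3 and 4.02, 4.06 and 3.83 at day 21. Of 6 mast cell and basophil markers 1 was tested, Kit, at 3.91, 4.41, 3.73, 4.33 and 4.09 at day 3 and 4.22, 4.47 and 3.91 at day 21 (0.10 ± 0.17). Of the 8 erythroid markers 0 had an unadjusted p under 0.05 (7 lower with the term and 4 lower in WT) and the median was −0.79, −2.63 with the term; Hba-a2, an alpha globin, was at 2.93, 3.05, 1.88, 1.01 and 3.42 at day 3 and 1.41, 1.70 and 1.75 at day 21. Mesothelial and capsule markers (7) had 0 and −0.81, 0.19 with the term, with Gpm6a at 1.82, 0.14, 0.55, 0.85 and 2.65 at day 3 and 0.60, 0.39 and 1.05 at day 21. Gzmb was lower in each day 21 library, whereas the days overlapped for Zbtb46, Hba-a2 and Gpm6a.

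Of 4 tested acinar pancreas markers edgeR and DESeq2 called 0, 1 was lower at an unadjusted p under 0.05 and the median was −2.48, −0.53 with the term. The lower one was Cpa1, a carboxypeptidase, at −3.80, −3.80, −3.80, −2.91 and 1.72 at day 3 and −3.80, −2.64 and −3.80 at day 21, where −3.80 means 0 counts, so it was seen mainly in library 23. Adipocyte markers (9 tested) had 0 calls by either tool, 0 at an unadjusted p under 0.05 and a median of 0.74, 2.02 with the term, with Plin4, a lipid droplet protein, at 4.26, 3.20, 1.86, 2.72 and 3.34 at day 3 and 4.28, 4.07 and 3.07 at day 21. Of 3 tested nerve and Schwann cell markers edgeR and DESeq2 called 0 and 0 had an unadjusted p under 0.05 (median 0.05, 0.12 with the term).

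Of 30 acute phase genes 26 were below 0 in log2 fold change. By edgeR 1 fell (1.25% of all tested genes did), and DESeq2 called 4 lower. At an unadjusted p under 0.05, 0 were higher and 6 lower (9.32% of all tested genes were lower). The number lower was 1 with the term and 5 in WT. Their median was −0.33 (−0.22 in WT, −0.06 with the term). Orm3, an orosomucoid, was at 0.97, 3.51, 4.55, 4.35 and 1.95 at day 3 and 1.83, 1.90 and 1.03 at day 21. Libraries 2 and 23 of day 3 lay within or near the day 21 range, so the days overlapped; the log2 fold change was −2.01 ± 0.57 (adjusted p = 0.0481; −1.75 with the term), and the call was lost without library 3, 4, 22, 37, 38 or 40 (adjusted p up to 0.17). Of 38 interferon-stimulated genes edgeR called 0, 0 were higher and 6 lower at an unadjusted p under 0.05, 7 were lower without overlap (9.32% and 6.49% of all tested genes) and DESeq2 called 3 lower (median −0.13, −0.12 with the term, −0.28 in WT). Irf9, which carries interferon signals to DNA, was at 5.51, 5.56, 5.84, 5.64 and 5.4 at day 3 and 5.17, 5.18 and 5.33 at day 21 (−0.37 ± 0.11, adjusted p = 0.0594). Of 11 MHC class II genes edgeR and DESeq2 called 0 and 0 had an unadjusted p under 0.05 (median −0.19, 0.29 with the term), with H2-Eb2 at −0.78, −2.04, −2.08, −0.92 and −0.38 at day 3 and −2.30, −2.01 and −1.65 at day 21. Of 31 tested chemokines and receptors edgeR and DESeq2 called 0 and 2 were lower (median −0.10, −0.02 with the term); Cxcl14 was at 3.22, 2.64, 1.06, 1.96 and 3.14 at day 3 and 2.24, 0.39 and 1.03 at day 21. Of 31 hepatocyte secreted proteins and identity factors edgeR called 0 and DESeq2 called 1 higher (median −0.16, 0.06 with the term). At an unadjusted p under 0.05, 3 were higher and 8 lower, against 8.05% and 9.32% of all tested genes. The number lower was 0 with the term and 9 in WT. Cebpa, a transcription factor of hepatocyte identity, was at 7.28, 7.49, 7.80, 7.82 and 7.16 at day 3 and 7.77, 8.29 and 8.16 at day 21 (0.55 ± 0.17, adjusted p = 0.0757), with overlap of libraries 4, 22 and 37.

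Matrix and cell cycle genes showed no call between the days. Of 36 tested collagen chains edgeR and DESeq2 called 0, 0 were higher and 1 lower at an unadjusted p under 0.05, and the median was 0.05, 0.22 with the term. Col1a1, of the main fibrillar collagen (chosen after its values were seen), was at 6.33, 5.19, 3.68, 2.94 and 6.46 at day 3 and 7.17, 4.32 and 5.74 at day 21, and Col28a1, with the smallest p, at 0.08, −2.32, −2.70, −2.91 and −0.16 at day 3 and −2.55, −3.80 and −2.61 at day 21. Col1a1 covered a range of several log2 units within each day. Of 49 matrix glycoproteins and crosslinking and turnover genes edgeR and DESeq2 called 0, 1 was higher and 3 lower (median −0.13, 0.11 with the term); Fn1, fibronectin, was at 11.14, 11.47, 11.67, 11.72 and 10.58 at day 3 and 11.76, 12.11 and 11.62 at day 21. Of 47 cell cycle genes edgeR and DESeq2 called 0, 1 was higher and 0 lower (median −0.09, −0.23 with the term). Ccne2, a cyclin of S phase entry, was at 1.85, 1.68, 1.11, 1.29 and 1.6 at day 3 and 2.11, 2.66 and 1.98 at day 21, without overlap (0.76 ± 0.27, adjusted p = 0.113), and Mki67, a proliferation marker chosen after its values were seen, at 5.96, 5.53, 2.85, 2.61 and 5.73 at day 3 and 5.56, 5.02 and 3.41 at day 21, spread widely on both days.

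Of 25 p53 targets edgeR called 0, 2 were higher and 2 lower at an unadjusted p under 0.05 and DESeq2 called 1 lower (median −0.02, −0.06 with the term); Ei24, a p53-induced ER protein, was at 6.91, 6.93, 7.34, 7.25 and 6.84 at day 3 and 6.51, 6.81 and 6.82 at day 21. Of 31 NRF2 and oxidative stress genes edgeR and DESeq2 called 0, 1 was higher and 3 lower (median −0.15, −0.15 with the term); Gclm, of glutathione synthesis, was at 7.12, 7.24, 7.34, 7.51 and 7.35 at day 3 and 7.50, 7.62 and 7.76 at day 21. Ei24 was lower in each day 21 library, and Gclm overlapped by a narrow margin. Of 13 tested fetal liver genes edgeR and DESeq2 called 0 and 1 was lower (median −0.13, −0.20 with the term); Igf2bp3, an RNA-binding protein of fetal tissue, was at 1.88, 1.76, 0.87, 0.94 and 2.29 at day 3 and 0.69, 1.16 and 0.57 at day 21. Of 22 tested replication-dependent histones edgeR called 0, 2 were lower and DESeq2 called 1 lower (median 0.18, −0.02 with the term); Hist2h4 was at 3.86, 4.06, 3.80, 3.02 and 3.27 at day 3 and 2.89, 2.75 and 2.36 at day 21, with an estimate of −0.97 ± 0.31 without and 0.01 with the term.

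The change from day 3 to day 21 was tested for a difference between HNKO and WT. edgeR called 0 genes (0%), the smallest adjusted p was 0.150, 786 genes had an unadjusted p under 0.05 (3.87%; 271 higher in HNKO, 1.34%, and 515 lower, 2.54%), and DESeq2 called 4. With the term edgeR again called 0 and 1073 genes had an unadjusted p under 0.05 (5.29%; 455 higher, 2.24%, and 618 lower, 3.04%), with a smallest adjusted p of 0.830. BC048403 had the smallest p. It was at 1.77, 1.91, 1.24, 1.62 and 1.37 at day 3 and 1.40, 1.19 and 1.19 at day 21 in HNKO and ran from 1.17 to 1.5 at day 3 and 1.90 to 2.13 at day 21 in WT. The WT days did not overlap, the HNKO days did, and the difference was −1.06 (adjusted p = 0.15, edgeR). Next on the lower side came mt-Rnr1 (−2.10), Rps16 (−2.79), mt-Rnr2 (−1.72) and Gm24601 (−6.17, at −0.78, −0.99, −1.48, 0.40 and 1.37 at day 3 and −3.80, −3.80 and −2.61 at day 21). With the term their differences were −0.93, −0.40, −0.53 and −3.16, and that of BC048403 −1.02. The first 3 mark libraries 35 to 40, and Gm24601 was also low there, at −2.11, −3.32 and −2.64 in libraries 35, 36 and 39, against −1.20 to −0.28 in the other HNKO libraries of day 12 and −1.53 to 1.79 in the other WT libraries of day 21. On the higher side Trappc6a, of the complex that tethers transport vesicles, was at 3.36, 3.31, 3.16, 3.28 and 3.34 at day 3 and 3.53, 3.44 and 3.76 at day 21, and differed by 0.79 (adjusted p = 0.313). Its HNKO libraries were a little higher at day 21, while in WT the gene fell (−0.50). Tec, a kinase of blood cells, differed by 0.54, Snrnp25, of the minor spliceosome, by 1.07, B3galt1 by 1.17 and Pla2g16, a phospholipase, by 0.68; their HNKO log2 fold changes were 0.19, 0.18, 1.08 and 0.34 and the WT ones −0.35, −0.90, −0.10 and −0.35. With the term these 4 differed by 0.58, 1.19, 1.5 and 0.62, and Trappc6a by 0.80. The DESeq2 calls were Trappc6a, BC048403, mt-Rnr1 and mt-Rnr2. edgeR called 1 gene when a library was left out: BC048403 without HNKO library 4 (−1.14, adjusted p = 0.0409), Trappc6a without WT library 24 (0.89, adjusted p = 0.0325) and mt-Rnr1 without WT library 39 (−2.30, adjusted p = 0.0147).

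Risen genes had longer transcribed sequence than fallen or tested genes. The median exon length was 5754 bases for the 240 risen genes, 3236 for the 253 fallen ones and 3388 over the 20287 tested genes with a length, and the median GC content was 50.1%, 50.9% and 48.7%. The median level was 4.49, 4.44 and 2.44 log2 CPM, so both sets of called genes were also more abundant than the tested genes. The WT calls and the calls with the term were not described in this way. Protein-coding genes made up 184 of the risen, 240 of the fallen and 14568 of the tested genes. Unconfirmed loci (TEC), antisense RNAs and lincRNAs together made up 19.6% of the risen, 0.791% of the fallen and 16.3% of the tested genes; 25 risen genes and 1 fallen gene were TEC. The strand setting of the counting is not stated in the sources, so such genes cannot be told apart from the genes they overlap.

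The limits of the comparison are its 3 libraries at day 21 and their place in the run from 35 to 40. These also all lie among libraries 22 to 41, whereas libraries 2, 3 and 4 of day 3 do not. The day and this split by library number are therefore partly mixed. With the 2 failed libraries added (all 40 libraries), 954 genes were higher and 775 lower, and with the term as well 1249 and 897; there libraries 17 and 18 are the day 21 HNKO libraries outside the run. Within libraries 22 to 41 alone, 2 of HNKO at day 3 remained, and Fzd5 and Brpf3 were the 2 genes higher, with 0 lower by edgeR and 2001 genes at an unadjusted p under 0.05.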

How the data were processed

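The table of gene counts deposited by the authors was used as it is: integer counts of read pairs per gene for 55487 genes in 40 libraries. By the submitters' processing notes, reads were aligned with STAR 2.7.2b and counted with featureCounts 1.6.4, and edgeR 3.26.0 was used for their tests; the strand setting of the counting is not stated. Names and exon lengths came from the GENCODE M21 annotation of GRCm38, which matched 55394 genes. The fit held the 38 libraries that passed quality control in 8 groups of genotype and day. Genes were kept by edgeR's filter (minimum count 10, minimum total 15, minimum proportion 0.7), which left 20297; 16022 had 0 counts in all libraries. Sizes were normalised by TMM, and each gene was tested by edgeR (quasi-likelihood F-test) with Benjamini-Hochberg adjustment, at 0.05, with a prior count of 2 for log2 CPM. Versions were R 4.3.3, edgeR 4.0.16, DESeq2 1.42.0 and limma 3.58.1.

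Named genes follow a rule written before the files were opened here: Nampt, the 10 called genes of smallest p in each direction with a symbol other than a predicted-gene number whose libraries did not overlap, the called members of each list, at most 4 in each direction (otherwise the member of smallest p, which for 2 lists is not reported here), and the 5 genes of smallest p in each direction for the difference between genotypes. The 33 gene lists and 17 marker lists (1110 entries, 1 without a matching symbol) and their members were chosen with earlier results of these data known, so the genes named from them were not chosen blind. Alternatives were set beforehand too, apart from the term for libraries 35 to 40, the fits of all 40 libraries with it and without libraries 35, 36 and 39, and leaving out each WT library of days 3 and 21, which were chosen after seeing the data. Replicates of 1 group differed by a chi-square per gene of 27.2 to 98.1 between pairs, a value that holds differences between mice as well as counting error. Total counts ran from 18938629 to 33259898 in the 8 libraries compared.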

Additional observations from a re-analysis of the deposited data

Results flagged for a closer look

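Of 87 values checked in the 5 HNKO libraries of day 3, 4 had a library far from the others, and chance flags about 1 in 20 groups. Abcc2 was at 9.40 log2 CPM in library 22, with the next at 9.10. Cpa1, a pancreatic carboxypeptidase, was at 1.72 in library 23, with the next at −2.91. The mitochondrial rRNAs stood out in library 22, mt-Rnr1 at 12.47 (next 11.77) and mt-Rnr2 at 15.09 (next 14.55). The groups of 3 libraries at day 21 were not checked in this way. The causes were not tested.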

How the results depend on the processing

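Against 240 genes higher and 253 lower in HNKO, counts stayed within 1.5 times with RLE size factors (231 and 220), at least 10 counts in every library (317 and 306), only the 4 groups of days 3 and 21 (287 and 337), the edgeR 4 computation (284 and 275) and robust estimation (229 and 242). They moved with DESeq2 (415 and 535), with no filter beyond 1 count (137 and 108), with only the 8 libraries compared (106 and 78), with all 40 libraries (954 and 775) and with only libraries 22 to 41 (2, Fzd5 and Brpf3, and 0 by edgeR, with 2001 genes at an unadjusted p under 0.05). The library number series, meaning inside or outside libraries 22 to 41, gave 268 and 160 as a covariate. Under it 34 of 43 named called genes kept their call and 9 lost it, and 4 of 42 named uncalled genes gained one. Chosen after seeing the data, a term for libraries 35 to 40 gave 51 and 3 (Ntn4, Nat10 and Clec14a), the term with all 40 libraries 1249 and 897, where the median of all genes shifted by −0.107, and leaving out libraries 35, 36 and 39 380 and 360. With 1 of the 8 libraries compared left out the counts ran from 33 to 256 and from 14 to 281, lowest without library 38, and with 1 WT library of these days left out from 200 to 253 and from 176 to 295. Fewer genes or libraries were tested in some of these fits; otherwise the cause was not tested.

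In WT, 666 higher and 339 lower became 654 lower with DESeq2, 427 and 170 with no filter, 362 and 118 with all 40 libraries, 322 and 113 with these and the term, 1104 and 898 with the series covariate, 125 lower with only libraries 22 to 41, 421 and 185 without libraries 35, 36 and 39, and 390 to 664 and 156 to 318 with 1 WT library left out. For the difference between genotypes edgeR called 0 (786 at an unadjusted p under 0.05), DESeq2 called 4, leaving out libraries 35, 36 and 39 gave 4 (Rps16, Rps16-ps2, mt-Rnr1 and mt-Rnr2), and leaving out 1 library gave 0 to 1.

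Of 43 named called genes, 4 kept their call with the term, 38 lost it and 1 reversed. Reversed in sign with the term were Igkc (0.21), Hist2h4 (0.0077) and mt-Rnr2 (0.023). With all 40 libraries they included Trappc6a (−0.032) and Snrnp25 (−0.33). With both they included Ndufs6 (0.16), Trappc6a (−0.33), Snrnp25 (−0.82), Pla2g16 (−0.16), mt-Rnr1 (0.31) and mt-Rnr2 (0.066). With 1 library left out, Mylpf ran from −0.92 (without library 37) to 3.66 and Kit from −0.023 (without library 38) to 0.25. The causes were not tested. No paired analysis was possible because library numbers are unique to each library.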

Other observations

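A called gene that is in no list, and uncalled members of lists, were chosen after their values were seen. Txn2, the mitochondrial thioredoxin, was at 6.12, 6.23, 6.49, 6.51 and 5.76 at day 3 and 5.27, 5.71 and 5.26 at day 21. It was lower in all 3 libraries of day 21, with a log2 fold change of −0.82 ± 0.19 (adjusted p = 0.0149, edgeR), 0.06 in WT and −0.35 with the term for libraries 35 to 40 (adjusted p = 0.785), and its call was lost without library 37 or 40 (adjusted p up to 0.104). Saa1, an acute phase protein, was at 6.03, 8.39, 6.19, 6.96 and 6.25 at day 3 and 5.75, 4.85 and 5.08 at day 21, with library 3 above the others of day 3 (log2 fold change −1.79 ± 0.62, adjusted p = 0.107, edgeR). Nfil3, a repressor of clock output genes, was at 4.20, 4.25, 4.75, 4.41 and 4.39 at day 3 and 3.30, 3.40 and 3.02 at day 21, lower in all 3 libraries of day 21 (adjusted p = 0.1, edgeR), and Per3, of the clock's negative limb, was at 3.71, 3.92, 4.27, 4.51 and 3.73 at day 3 and 5.26, 6.36 and 6.74 at day 21, higher in all 3 (adjusted p = 0.125, edgeR).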
